A study of Mus musculus with 2 samples.

Results

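Wide promoter hotspots were stretches of at least 2000 bp shared by a hotspot of replicate 1 and a hotspot of replicate 2, on chromosomes 1 to 19, that contained the transcription start site (TSS) of at least 1 protein-coding transcript of GENCODE M21 (mm10). A hotspot is a region that was called in a library as enriched for DNase I cleavage. There were 1186 such regions among 149129 intersections of the hotspots of both replicates. Of the 14471 intersections over a protein-coding TSS, they made up 8.20%. They held a TSS of 1309 of the 20722 protein-coding genes of these chromosomes, or 6.32%. The regions were chosen by their measured hotspot width in both replicates, so widths, peaks and scores are given here as a description, with no test. DNase-seq was done on entire mouse embryos at 11 days, in 1 group of 2 biological replicates. For each replicate, B6NCrl embryos of both sexes were pooled; the labels give a biosample entry per replicate, a donor entry in common, and no allele or treatment. Each library has its own list of hotspots (179603 in replicate 1, 197152 in replicate 2) and of 150 bp peaks, and its depth is unknown. In a whole embryo, weak accessibility in many cells and strong accessibility in a few cannot be told apart.

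DNase I cuts DNA that is not wrapped in nucleosomes, and active promoters are the classic sites of such cutting. Most mammalian promoters lie in CpG islands, stretches rich in G, C and the dinucleotide CpG that stay free of DNA methylation. Factors such as SP and KLF proteins, NFY, ETS proteins and NRF1 bind in them, and the nucleosome-free stretch can reach from the TSS into the first intron. Regulators of development often have long islands with several start sites.

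The sequences below show what lay under the cleavage away from or beside the TSS. Each is a 150 bp peak called in both replicates, namely the one of highest mean score in its region that overlapped no annotated exon of a protein-coding gene. The first 5 are from regions among the widest and the last 2 from the 2 regions with the lowest CpG observed-to-expected ratio. All are read 5′ to 3′ on the plus strand of mm10 (GRCm38, RefSeq sequence). Capitals mark matches, on either strand, to the motifs named after each sequence, and a match is no evidence of binding. The peak at Tnrc18 is chr5:142817796-142817945, 209 bp upstream of the TSS. It held 2 matches for NFY (CCAAT), 1 for SP and KLF (GGGCGG), 1 for TEAD (GGAATG) and 1 for TATAAA. The TATAAA match is spelled on the plus strand, while Tnrc18 is read from the minus strand. That at Tgif1, chr17:70852916-70853065, lay in an intron, with 1 NFY match. Those at Marcks (chr10:37140956-37141105), Ccnd1 (chr7:144941556-144941705) and Efna5 (chr17:62882956-62883105) lay 2111, 1762 and 1714 bp upstream of the TSS, outside protein-coding genes. The Marcks peak held 3 SP and KLF matches, and the Ccnd1 and Efna5 peaks 1 NFY match each. At Ccnd1 another upstream peak had the same scores, 134 and 141, and the one with the lower coordinate is shown. The peak at Spaca6, chr17:17826956-17827105, lay 293 bp upstream of its TSS with 1 SP and KLF match. The peak at Serpinh1, chr7:99352076-99352225, lay in an intron with 1 SOX match (ACAAAG).
Tnrc18: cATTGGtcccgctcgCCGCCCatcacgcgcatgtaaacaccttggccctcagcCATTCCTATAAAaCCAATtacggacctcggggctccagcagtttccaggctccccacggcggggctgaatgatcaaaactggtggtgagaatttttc
Tgif1: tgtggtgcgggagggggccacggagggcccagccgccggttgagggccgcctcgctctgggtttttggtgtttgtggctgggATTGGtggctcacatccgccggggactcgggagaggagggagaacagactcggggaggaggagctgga
Marcks: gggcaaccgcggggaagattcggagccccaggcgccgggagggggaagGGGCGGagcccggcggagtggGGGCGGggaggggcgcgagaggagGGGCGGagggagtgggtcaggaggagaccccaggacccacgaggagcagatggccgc
Ccnd1: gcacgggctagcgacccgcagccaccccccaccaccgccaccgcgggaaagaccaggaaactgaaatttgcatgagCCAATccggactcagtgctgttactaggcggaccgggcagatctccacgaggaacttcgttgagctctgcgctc
Efna5: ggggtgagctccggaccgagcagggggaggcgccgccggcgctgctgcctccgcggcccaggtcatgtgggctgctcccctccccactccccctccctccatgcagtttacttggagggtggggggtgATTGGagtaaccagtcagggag
Spaca6: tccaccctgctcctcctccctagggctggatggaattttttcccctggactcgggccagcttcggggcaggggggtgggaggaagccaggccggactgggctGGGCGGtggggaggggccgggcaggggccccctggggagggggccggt
Serpinh1: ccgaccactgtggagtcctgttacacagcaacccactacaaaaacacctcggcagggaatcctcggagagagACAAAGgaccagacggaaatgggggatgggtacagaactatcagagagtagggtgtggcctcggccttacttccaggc

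Widths fell off steeply above the limit. The median was 2330 bp (quartiles 2133.2 and 2665.8 bp), 405 regions reached 2500 bp, 149 reached 3000 bp, 31 reached 4000 bp and the widest had 8514 bp. The limit cut through a continuous range of widths. Just inside it, at 2000 bp, were the regions of Lin9, of Prr3 with Gnl1, and of Slc25a28. Just outside, at 1999 bp, were those of Cd164, Tmtc2 and Glce. All 1186 regions lay in hotspots whose deposited value, a −log10 of a q value, stood at its ceiling of 100 in both replicates, against 89.5% of the 13285 narrower intersections over a TSS.

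The hotspots behind a region had a median width of 2369 bp in replicate 1 and 2547 bp in replicate 2. Replicate 2 had the wider hotspot in 940 regions, replicate 1 in 244, and 2 were equal. Replicate 2 was also the wider in 77.1% of the narrower promoter hotspots, so the direction was that of promoter hotspots in general. The size of the difference was small in most regions: the median ratio of replicate 2 to replicate 1 was 1.041, and the intersection covered a median of 94.2% of the union of both hotspots. In 728 regions (61.4%) the replicate 1 hotspot lay wholly inside that of replicate 2. Spearman's rho between the widths of both replicates over the 1186 regions, which were all chosen to be wide in both, was 0.72.

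**Figure D1:**
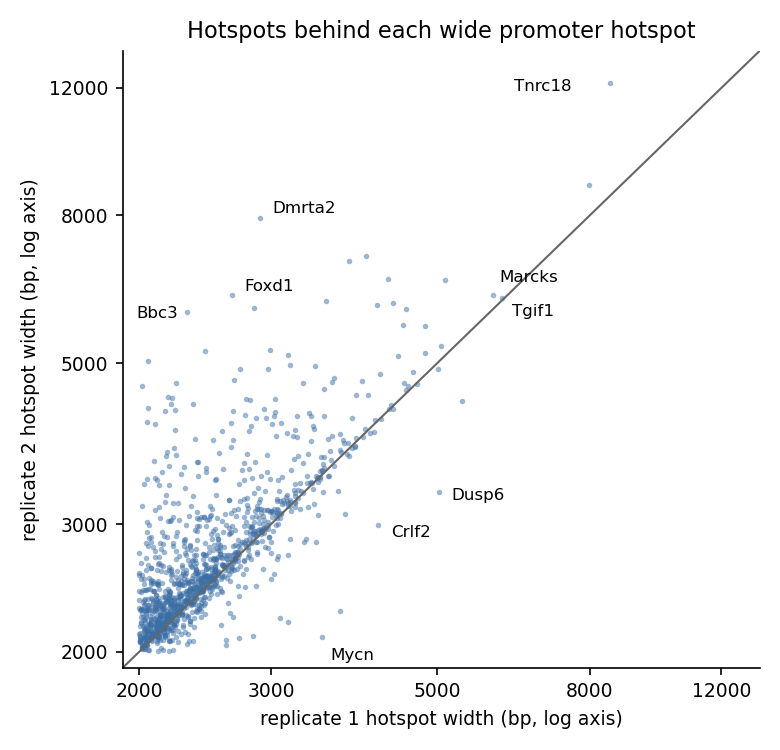
Width of the replicate 1 hotspot (x axis, bp, log scale) and of the replicate 2 hotspot (y axis, bp, log scale) behind each of the 1186 wide promoter hotspots, 1 point per region, with the line of equal width. Most points lie close to the line, and 55 of the 58 regions that differed by at least 1.5 times lie above it.

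In 58 regions the hotspots of both replicates differed by at least 1.5 times in width, 55 of them wider in replicate 2 and 3 wider in replicate 1. At the gene for the transcription factor Dmrta2 the hotspot was 2897 bp in replicate 1 and 7947 bp in replicate 2. Bbc3, which encodes the apoptosis regulator PUMA, had 2314 and 5885 bp, and Foxd1, a forkhead factor, had 2662 and 6211 bp. Nr2f1, an orphan nuclear receptor of the developing brain, had 2017 and 4650 bp. In each of these the hotspot of replicate 1 lay inside that of replicate 2 and set the width of the region. The opposite order was seen at Mycn, a MYC family gene, with 3510 bp in replicate 1 and 2097 bp in replicate 2, at Foxp1 with 3704 and 2278 bp and at Dusp6, a phosphatase that acts on ERK, with 5027 and 3326 bp. Zfp423 (3163 and 2197 bp) and Crlf2 (4172 and 2994 bp) also had the wider hotspot in replicate 1.

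The same asymmetry set the count of genes per replicate. With replicate 1 alone, 1299 hotspots of at least 2000 bp held a protein-coding TSS, of 1438 genes (6.94% of all). With replicate 2 alone there were 2194 such hotspots with 2400 genes (11.6%). Both replicates agreed on 1336 genes, 102 were in replicate 1 alone and 1064 in replicate 2 alone. Of the 1336 genes, 27 had no TSS in an intersection of 2000 bp. Whether depth, the library or the embryos widened the hotspots of replicate 2 was not tested.

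The widest region, 8514 bp at Tnrc18 (chr5:142815995-142824508), was a hotspot of 8514 bp in replicate 1 and of 12199 bp in replicate 2. It reached 6846 bp upstream of the TSS and 1667 bp downstream, and held 17 shared peaks, meaning peaks of replicate 1 that had at least 1 bp in common with a peak of replicate 2. No other region held as many shared peaks. At Tgif1 (chr17:70847765-70853868), which encodes a homeodomain repressor of TGF-beta signalling, the hotspots were 6104 and 6160 bp wide, with 11 peaks in each replicate. Its 6 annotated TSSs spanned 3902 bp, and 70.7% of the region was intron. At Marcks (chr10:37135953-37141889), for a membrane protein that binds actin and is a substrate of protein kinase C, the hotspots measured 5937 and 6219 bp. That region had a single TSS near its middle, with 2969 bp upstream and 2967 bp downstream.

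Ccnd1 (chr7:144938625-144943747), which encodes cyclin D1, had hotspots of 5123 and 6521 bp. Its region reached 3878 bp upstream and 1244 bp downstream of a single TSS. Efna5 (chr17:62879475-62884528), an ephrin ligand of axon guidance, had 5054 and 5284 bp and 9 shared peaks. Both regions lay mostly outside protein-coding genes, by 75.7% and 63.5% of their bases. Brd2, a bromodomain protein that reads acetylated histones, shared a region of 4907 bp with H2-DMa (chr17:34118151-34123057), a gene of MHC class II peptide loading that is read from the other strand. There 74.2% of bases were noncoding exon in the annotation.

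The other regions of this size had 1 gene each. Patz1, a zinc finger transcription factor (chr11:3288441-3293261), had hotspots of 4821 and 5161 bp. Zmiz1, a transcriptional coactivator (chr14:25457025-25461840), had 4816 and 5636 bp. Ubtf, the upstream binding factor of RNA polymerase I (chr11:102316228-102320867), had 4640 and 4866 bp, 9 TSSs and 8 shared peaks. Arrdc3, an arrestin domain protein (chr13:80882479-80887111), had 4699 and 4679 bp, and Fat1, a giant protocadherin (chr8:44934488-44939055), had 4568 and 4651 bp. Here the replicates differed by little, and the widest regions were not those with the most unequal hotspots.

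**Figure D2:**
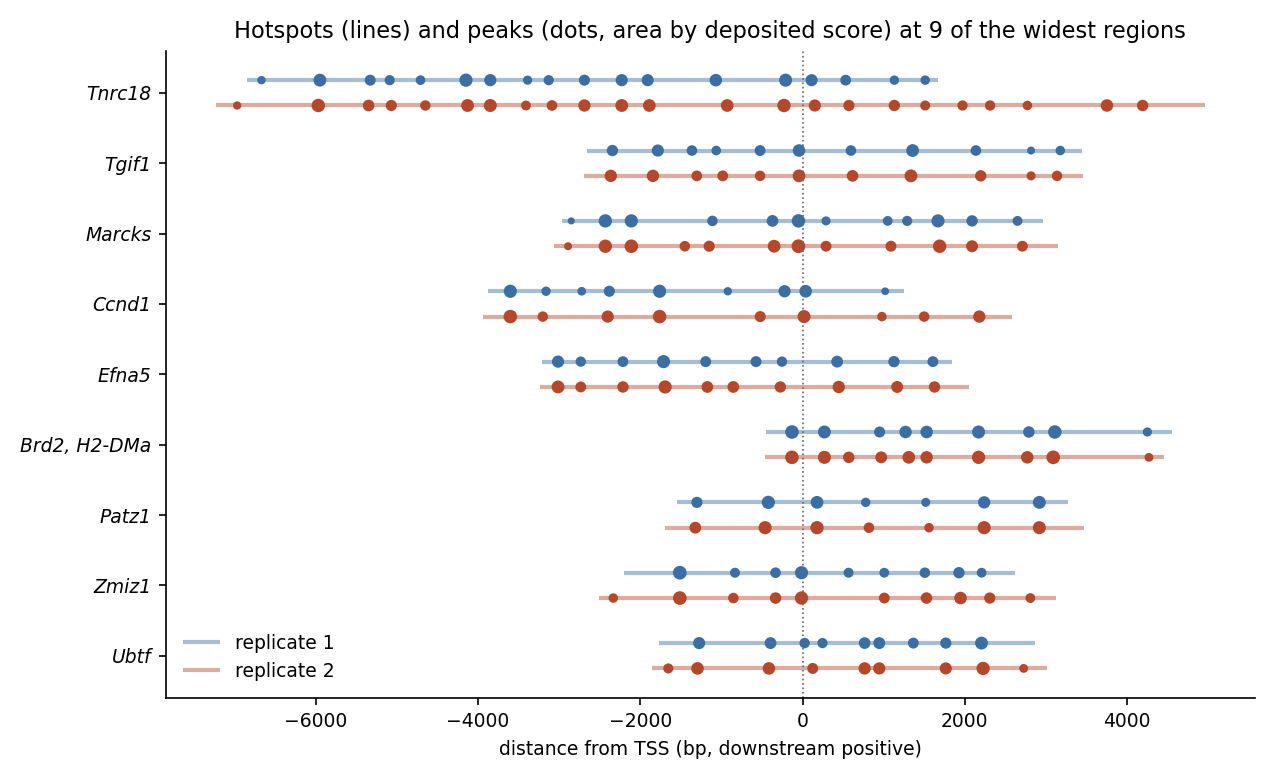
Hotspots (lines) and peaks (dots, with area in proportion to the deposited score) of replicate 1 and replicate 2 at 9 of the widest regions, by distance from the principal TSS in bp, with downstream positive. In the row shared by Brd2 and H2-DMa, the TSS is that of Brd2. The replicates show peaks at nearly the same positions, and at Tnrc18 the hotspot of replicate 2 runs farther in both directions.

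Most wide promoter hotspots held several of the 150 bp peaks. They had a median of 4 shared peaks, against 1 in narrower promoter hotspots. Per kb the medians were 1.51 and 1.61, so the number of peaks followed the width (Spearman's rho 0.58 over the 1186 regions). Of the regions, 11 had 1 shared peak, 135 had 2, 353 had 3, 358 had 4, 201 had 5 and 77 had 6. Neighbouring shared peaks lay a median of 520 bp apart (440 bp in narrower promoter hotspots). Of 5215 replicate 1 peaks in the regions, 4642 (89.0%) were shared. The number of peaks was equal in both replicates in 563 regions and differed by at most 1 in 1069. Among the regions with 1 shared peak, Fchsd2 had 3 peaks in each replicate, Fut8 had 4 and 2, Tmem65 had 1 and 3, Med26 had 2 and 2, and Arntl, a clock gene, had 3 and 2. At Fchsd2, Fut8 and Arntl, most peaks of replicate 1 thus overlapped no peak of replicate 2.

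The best-scoring peak was not always the one at the TSS. The deposited scores end at 150, and their scale is not explained. The highest score in a region had a median of 133 in replicate 1 and 137 in replicate 2. In narrower promoter hotspots the medians were 121 and 128. A region with more peaks has more chances of a high score, and this was not corrected for. The shared peak with the highest summed score of both replicates lay within 250 bp of a TSS in 882 regions (74.4%), against 92.1% of narrower ones. In 78 regions (6.58%) it lay at least 1 kb from every protein-coding TSS, against 0.182%, though a narrow hotspot leaves less room for such a peak. Scores fell with distance. The 1709 shared peaks within 250 bp of a TSS had median scores of 123 and 129, the 2028 at 250 to 1000 bp had 86 and 99, and the 905 at 1 kb or more had 78 and 91. The last group still stood above the 125488 distal peaks outside the regions, with 47 and 56.

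The regions extended farther into the gene than away from it. In the 1059 regions with TSSs on 1 strand, the median reach was 956 bp upstream and 1425 bp downstream of the TSS, and 747 (70.5%) reached farther downstream. Narrower promoter hotspots reached 359 and 550 bp, and 65.8% of them reached farther downstream, so the downstream part was a median of 58.7% of the width in wide and 58.3% in narrower regions. The direction was thus that of promoter hotspots in general. It also depended on the TSS chosen: 77.1% reached farther downstream of the most upstream TSS of the region, and 51.4% of the most downstream TSS. Upstream, the farthest after Tnrc18 and Ccnd1 were Zfp36l1, an mRNA decay factor (3546 bp), Efna5 (3211 bp) and Tle3, a Groucho corepressor (3065 bp). Downstream, Adgrl2, an adhesion receptor, reached 3779 bp, Chd3, a NuRD remodeller, 3749 bp, Arrdc3 3701 bp and Anp32a, a histone chaperone, 3687 bp. Most of the bases at Adgrl2 and Chd3 were intron (87.2% and 86.8%).

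**Figure D3:**
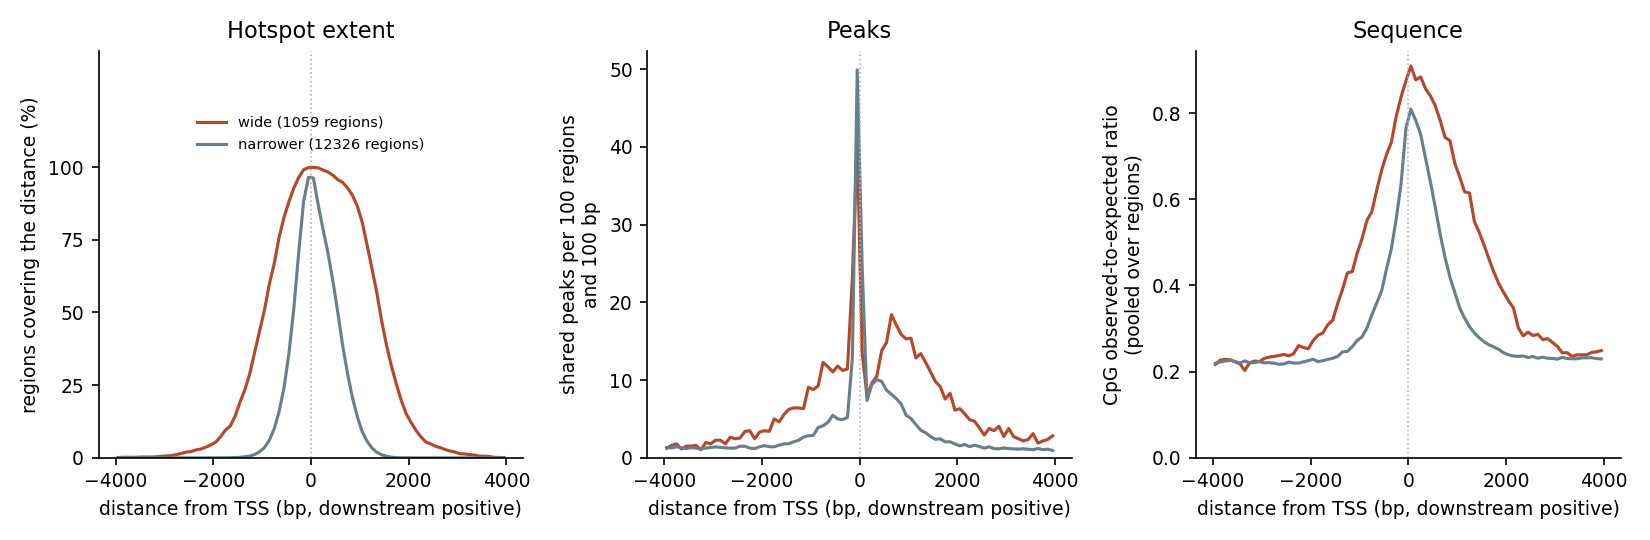
Left, percent of regions that cover each distance from the principal TSS (bp, downstream positive); middle, shared peaks per 100 regions in 100 bp bins; right, CpG observed-to-expected ratio pooled over regions. Lines stand for the 1059 wide and the 12326 narrower promoter hotspots with TSSs on 1 strand. Both classes have a shoulder of peaks downstream of the TSS, which is higher and farther out in the wide regions. The wide regions also have a broader rise in CpG ratio.

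The DNA under the regions was rich in CpG, as measured by the observed-to-expected ratio, the number of CpG dinucleotides over that expected from the C and G content. The median ratio was 0.76 in wide promoter hotspots and 0.70 in narrower ones, against 0.19 for chromosomes 1 to 19 as a whole. A ratio of at least 0.6, a mark often used for CpG islands, was reached in 1058 regions (89.2%) and in 69.2% of narrower ones. GC content was 61.9% and 59.9% in the median. The rise extended outward with the hotspot: at 1000 to 1500 bp downstream of the TSS the pooled ratio was 0.59 around wide and 0.31 around narrower promoter hotspots, and at the same distance upstream 0.42 and 0.25. At 2000 to 3000 bp it was 0.30 and 0.23 downstream, and 0.24 and 0.22 upstream.

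Across all protein-coding genes, the share with a wide promoter hotspot rose with the CpG ratio in the 1 kb around the principal TSS. With genes in 10 equal groups by that ratio, 0.193% had one in group 1 (the lowest), 3.72% in group 5, 9.51% in group 8 and 20.4% in group 10, against 6.32% of all genes. A gene without a promoter hotspot could not be wide, and the groups differed in this. Any promoter hotspot in both replicates was found for 91 of 2073 genes in group 1 and 2040 of 2073 in group 10. Of these, 4 and 422 were wide. The median width of any promoter hotspot went from 607 bp in group 1 to 1499.5 bp in group 10. Over 13385 promoter intersections on 1 strand, Spearman's rho between width and the CpG ratio within 2 kb was 0.62, and over the 1059 wide ones alone it was 0.16. These are correlations across regions of the same 2 libraries, and base composition can itself affect cleavage and sequencing, which was not tested.

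**Figure D4:**
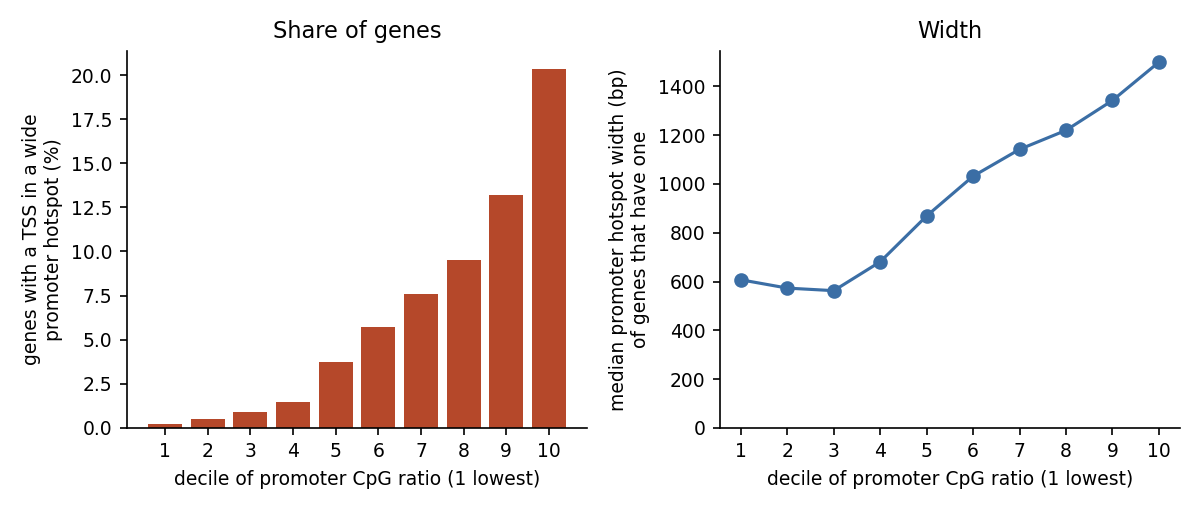
Protein-coding genes of chromosomes 1 to 19 in 10 equal groups by the CpG observed-to-expected ratio within 500 bp of the principal TSS. Left, percent of genes with a TSS in a wide promoter hotspot, from 0.193% to 20.4%. The share is over all genes of a group, of which 91 of 2073 in group 1 and 2040 of 2073 in group 10 had any promoter hotspot. Right, median width in bp of the promoter hotspot of the genes that have one, from 607 to 1499.5 bp.

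The extremes of CpG content were far apart. Qk, an RNA-binding protein of the neural lineage, had a ratio of 1.11 over 2752 bp, and Chd7, a remodeller of the neural crest, had 1.09. Hnrnpa0 had 1.05, Nsun2 with Tent4a 1.04 and Med13l, a Mediator subunit, 1.03. At the other end stood Spaca6 with 0.32, Serpinh1, a collagen chaperone, with 0.34, and Nynrin with 0.35. Car14, a carbonic anhydrase, also had 0.35, and Plin3, a lipid droplet protein, had 0.35. The hotspots behind these regions, wide in both replicates by selection, measured 3285 and 3331 bp at Spaca6, 2498 and 2572 bp at Serpinh1, and 2515 and 2588 bp at Plin3. At Nynrin they were less alike, with 2031 and 3406 bp.

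Short motifs were counted in the window from 250 bp upstream to 50 bp downstream of the principal TSS, on both strands. No searched motif contains another. GGGCGG, bound by SP and KLF proteins, was in 76.9% of the promoters of the 1309 genes, 62.8% of those of 12542 genes with a narrower promoter hotspot and 46.3% of all. The ETS motif CCGGAAG was less frequent in them, at 7.56%, 16.8% and 11.5%, and so were the NRF1 motif GCGCATGC (3.06%, 5.11% and 3.49%) and TATAAA (4.97%, 7.19% and 12.6%). CCAAT of NFY was in 35.1%, 37.2% and 38.0%. The window lay at the principal TSS, while the 1309 genes were counted by any TSS. With principal starts alone, 1214 genes were counted. Promoter CpG ratios differed as well, with medians of 0.83, 0.71 and 0.58, and the motif shares were not corrected for this. Within the regions the peaks changed with distance from the TSS. GGGCGG was in 61.1% of shared peaks within 250 bp of a TSS, 41.0% at 250 to 1000 bp and 29.2% at 1 kb or more, against 8.35% of distal peaks outside the regions. The E-box CAGCTG, bound by many bHLH factors, went the other way, with 6.38%, 8.53% and 11.9%, and 18.5% of distal peaks. The SOX motif ACAAAG was in 6.38%, 9.81% and 11.7%, against 14.5% of distal peaks. Shares follow base composition too: median GC was 70%, 65.3% and 60% in the 3 groups of peaks and 51.3% in distal peaks.

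Most regions served a single gene. Of the 1186, 1052 held TSSs of 1 protein-coding gene, 130 of 2 and 4 of 3. Among those with 3 were the regions of Mrps6 with Gm49711 and Slc5a3, and of Bet1l with Gm45785 and Ric8a. TSSs on both strands were found in 127 regions (10.7%), 86 of them with all reverse starts to the left of all forward ones, against 7.22% of narrower regions. TSSs at least 500 bp apart were in 361 (30.4%, against 6.86%) and a long noncoding RNA TSS in 244 (20.6%, against 9.54%). A wider stretch has more room for each of these, and this was not corrected for. Hairpins of annotated miRNAs lay in 10 regions (0.843%) and in 47 narrower ones (0.354%). Among them were Mir219a-1 and Mir219c, both inside the region of the Polycomb gene Ring1, which is 2095 bp wide.

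The genes themselves were long and had many starts. Median gene length was 48506 bp for genes in the regions, 23868.5 bp for genes with a narrower promoter hotspot and 7593 bp for genes with none in both replicates. First exons (336, 230 and 189 bp) and first introns (7829, 3538 and 1785 bp) followed the same order. Of genes with 1 annotated TSS 4.22% had a wide promoter hotspot, of genes with 2 5.12%, with 3 6.80% and with 4 or more 11.3%. A gene was counted by any of its TSSs, so more starts gave more chances, and this was not corrected for. With the principal start of each gene alone, 1214 genes were counted. A single exon was annotated for 71 of the 1309 genes (5.42%), for 2.66% of genes with a narrower promoter hotspot and for 14.0% of genes with none. In the median region 41.1% of bases were intron, 30.6% lay outside protein-coding genes, 15.0% were noncoding exon and 3.95% coding. For 14 genes at least 2 regions covered different starts. Among these were the chromatin regulators Arid1a, Kdm2b and Sin3a, Rai1 with 3 regions, and Auts2, Camta1, Gse1, Elf2, Npas3, Rgma, Stox2, Wnt5a and Zfp536.

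Gene lists were read against the 6.32% of all genes with a wide promoter hotspot. Among the 13851 genes with any promoter hotspot in both replicates, the share was 9.45%. The lists and their members were chosen with earlier results of these data known, and the counts carry no test. Hotspot widths of a gene are given as replicate 1 and replicate 2, each being the widest hotspot over any of its TSSs. Genes named beyond the first 4 wide and the first 2 other members of a list were chosen after their values were seen. Lists of signalling genes had shares above that of all genes. Of 22 genes of the BMP and TGF-beta pathway, in which ligands drive receptor kinases and SMAD proteins, 11 had one (11 with replicate 1 alone, 17 with replicate 2 alone). They included the receptors Bmpr2 (2799 and 2864 bp) and Tgfbr1, and the transducers Smad1 (2140 and 2311 bp) and Smad3 (3025 and 3149 bp). The ligand genes Bmp2 (1640 and 1753 bp) and Bmp4 (757 and 831 bp) had narrower ones. The inhibitors Nog, Fst, Ski, Skil, Tgif1, Tgif2 and Smad6 were among the 11, and the inhibitors Smad7, Chrd and Bambi were not.

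Of 22 Wnt pathway genes, 9 had a wide promoter hotspot. They were the nuclear effectors Tcf7l1 (2618 and 2682 bp), Tcf7l2 (2187 and 2229 bp) and Lef1 (2623 and 2719 bp), the receptors Fzd1, Fzd2, Fzd7 and Fzd10, the kinase Gsk3b and the ligand Wnt5a. Ctnnb1, which encodes beta-catenin, had 1834 and 1884 bp, and Axin2, a feedback target, 1982 and 3482 bp. Of 20 Notch and Hedgehog genes, 7 had one, among them Dll1, a Notch ligand (2592 and 2618 bp), Rbpj, the DNA-binding effector (3445 and 3496 bp), and Ptch1, the Hedgehog receptor (2361 and 4400 bp). All of the Hedgehog effectors Gli1, Gli2 and Gli3 were included. The receptors Notch1 (1187 and 1458 bp) and Notch2 (1174 and 1313 bp) were narrower. In the Fgf, Ras and receptor kinase list, 7 of 22 had one. The inhibitors Spry2 (2248 and 2281 bp), Spry4 (2646 and 2259 bp) and Spred2 (2827 and 2971 bp) were among them. The receptor gene Fgfr2 was counted through a region shared with Ctbp2 (3805 and 3882 bp). The ligand genes Fgf8 (879 and 1523 bp) and Fgf10 (1909 and 2036 bp) were not wide. As that region held TSSs of Ctbp2 too, its width cannot be credited to Fgfr2 alone. With the principal start of each gene alone, 6 of the 22 were wide. Of 22 axon guidance genes 8 had one, among them the ephrin ligands Efna1, Efna5 and Efnb2 and the receptor Epha4 (2402 and 2986 bp).

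Shares above that of all genes were also found in lists of nuclear regulators. Of 28 chromatin regulators, 13 had a wide promoter hotspot (13 with replicate 1 alone, 17 with replicate 2 alone). They included Brd2 (5009 and 4911 bp), the Polycomb methyltransferase Ezh2 (2140 and 2770 bp), the trithorax methyltransferase Kmt2a (3228 and 4046 bp) and the CpG island binder Kdm2b (3439 and 4959 bp). Several others fell just short, such as Brd3 (1974 and 2036 bp), and lowering the limit to 1500 bp gave 24 of 28, with 3609 genes in all. Of 16 nuclear receptors and cofactors 8 had one, including the corepressor Ncor1 (2582 and 3033 bp) and the retinoic acid receptor Rarg (2229 and 4047 bp). Rara (597 and 1451 bp) and Rarb (1039 and 1169 bp) did not, although all bind the same ligand. Of 30 splicing factors and hnRNPs, 13 had one, such as Hnrnpa0 (2434 and 2685 bp), Hnrnpa2b1 (2811 and 2934 bp) and Hnrnpd (2166 and 2175 bp). Hnrnpa1 had 1272 and 1271 bp.

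Immediate early genes, which respond to growth signals within minutes, had 8 of 23. Jun (4365 and 4321 bp), Jund (2182 and 2230 bp), Egr2 (2844 and 3019 bp) and Ier2 (3389 and 4226 bp) were among them, as was Myc. Fos (1498 and 1529 bp) and Fosb (702 and 698 bp) were narrower, although Fos and Jun proteins bind DNA as a dimer. Growth and cell cycle genes had 6 of 22. The D-type cyclins Ccnd1 (5123 and 6521 bp) and Ccnd2 (4295 and 6531 bp), the S phase regulator E2f3 (3522 and 3633 bp) and Rb1 (2164 and 2385 bp) were among them. The mitotic genes Ccnb1 (448 and 521 bp) and Cdk1 (1121 and 1497 bp) were not. Cytoskeleton genes had 7 of 18, with Actb (2193 and 2153 bp), Actg1 (2934 and 3036 bp), Tubb2b (3356 and 3169 bp) and Marcks among them, against 735 and 1328 bp at Tubb5.

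**Figure D5:**
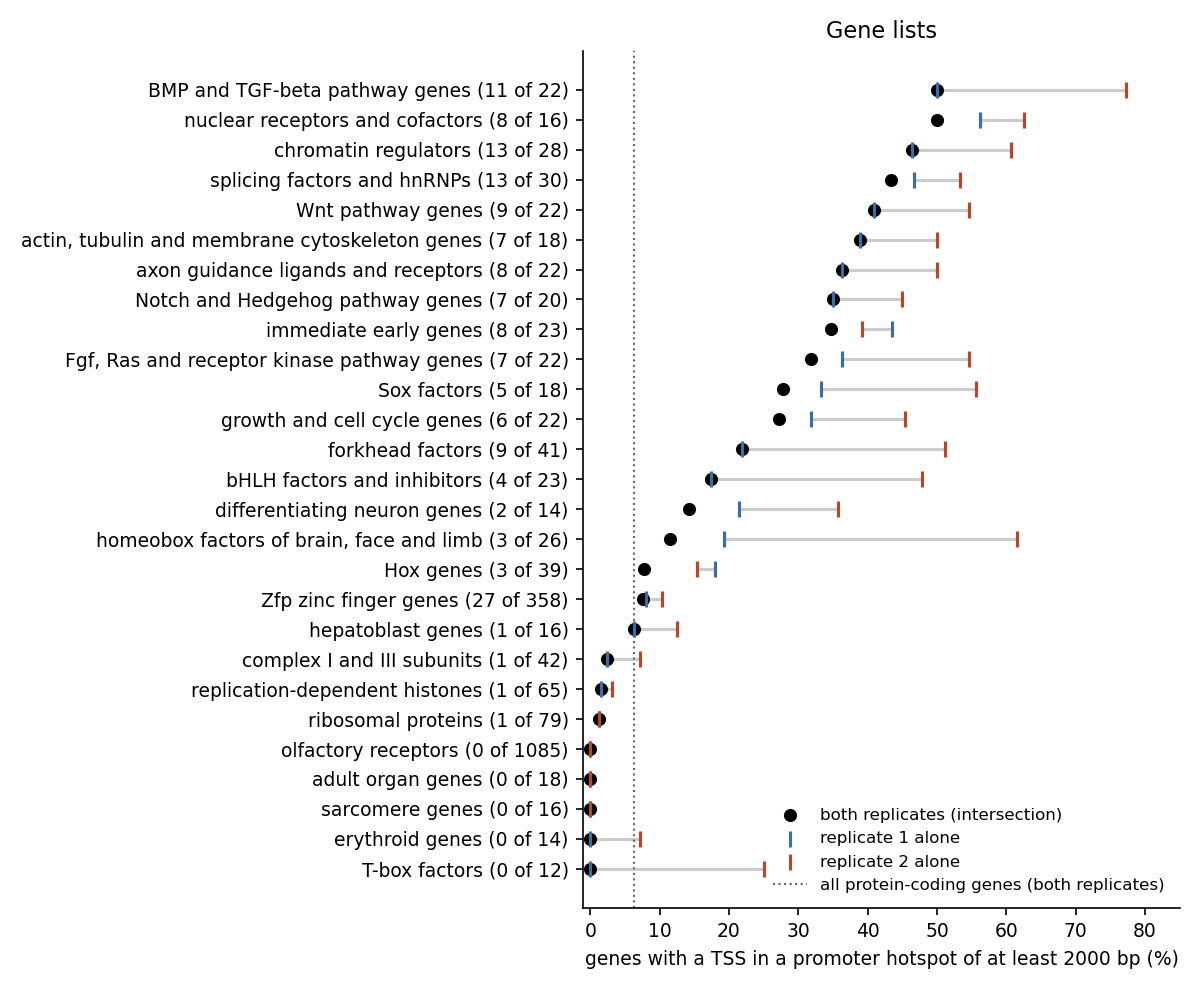
Percent of the genes of each list with a TSS in a promoter hotspot of at least 2000 bp, for the intersection of both replicates (dots, with the counts at the left), replicate 1 alone and replicate 2 alone (ticks); the dotted line is the 6.32% of all protein-coding genes. The bars between the ticks are longest for homeobox, forkhead and bHLH factors.

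Lists of ribosomal, respiratory chain and histone genes had fewer wide promoter hotspots than the 6.32% of all genes. Of 79 ribosomal protein genes, 76 had a promoter hotspot of any width in both replicates. Their median intersection width was 922 bp, against 1130 bp for all genes with such a hotspot. Only Rpl7 (2773 and 2600 bp) was wide, in a region that also holds a TSS of Rdh10. Of 42 subunits of complexes I and III of the respiratory chain, 41 had a promoter hotspot in both replicates and 1 was wide, Uqcrh (2241 and 2681 bp). Of 65 replication-dependent histone genes 34 had a promoter hotspot in both replicates and 1 was wide, Hist1h1b (2335 and 2797 bp). The median promoter CpG ratio was 0.81 for ribosomal protein genes, 0.71 for complex I and III and 0.88 for histone genes, against 0.58 for all genes. In the lists of the 4 paragraphs before, it ran from 0.73 (axon guidance) to 0.94 (splicing factors and hnRNPs). Whether CpG content is related to the share of wide members in a list was not tested. Of 358 Zfp zinc finger genes 27 were wide (7.54%), such as Zfp24 (2047 and 2042 bp) and Zfp41 (2583 and 2640 bp). Of the 305 with a promoter hotspot in both replicates that is 8.85%, against 9.45% of all such genes.

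Lists for differentiated cell types held 14 to 18 genes each, so that about 1 wide member would match the share of all genes. None was found among 14 erythroid genes, 16 sarcomere genes and 18 adult organ genes, nor among 1085 olfactory receptors. Only 9, 7, 2 and 8 of these genes had any promoter hotspot in both replicates, and a gene without one could not be wide. Of the erythroid genes, Tal1 had 1338 and 2232 bp and Klf1, the red cell activator of globin, 216 and 97 bp. Among 16 hepatoblast genes, 5 of them with a promoter hotspot in both replicates, the 1 was Cebpa (3055 and 3106 bp). Cebpa encodes a factor that is also used outside the liver. Of 14 genes of differentiating neurons 2 were wide, Elavl3 (2015 and 2061 bp) and Mapt, the gene of the protein tau (2127 and 2655 bp). Fewer cells of a type and fewer open promoters per cell cannot be told apart in whole embryos.

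The counts of developmental transcription factors moved with the replicate. Of 26 homeobox factors of brain, face and limb 3 were wide in the intersection, Msx1 (2123 and 3169 bp), Irx3 (2054 and 4334 bp) and Meis1 (3147 and 4012 bp), but 5 in replicate 1 alone and 16 in replicate 2 alone, against 6.94% and 11.6% of all genes. Pax6, a master gene of the eye, had 715 and 3916 bp. Over the 23 of these genes with a hotspot in both replicates, the median ratio of replicate 2 to replicate 1 was 2.04, and 14 were at least 1.5 times wider in replicate 2. For 10 T-box genes the median ratio was 2.07, with 8 at least 1.5 times wider in replicate 2, and none of 12 was wide in the intersection. Tbx1 had 821 and 1806 bp, and Tbx2 had 1976 and 1865 bp. Over all 13855 genes with a hotspot in both, the median ratio was 1.09 and 11.9% were at least 1.5 times wider in replicate 2. For chromatin regulators the ratio was 1.04, and 0 of 27 were that much wider.

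Sox, forkhead and bHLH factors lay in between. Of 18 Sox genes 5 were wide (6 in replicate 1 alone, 10 in replicate 2 alone), such as Sox4 (2425 and 2580 bp), Sox6 (2890 and 3149 bp), Sox11 (3029 and 4235 bp) and Sox12 (2585 and 3570 bp). At Sox2, a factor of neural progenitors, a hotspot of 8415 bp covered the TSS in replicate 2, and no hotspot of replicate 1 did. Sox1 had the opposite order, with 3444 and 1431 bp. Of 41 forkhead genes 9 were wide (9 and 21 in single replicates), among them Foxd1, Foxd2 (2821 and 2681 bp), Foxn2 (2184 and 2370 bp) and Foxn3 (2165 and 2107 bp). Of 23 bHLH factors and inhibitors 4 were wide, Hes1 (2910 and 3145 bp), Id4 (2887 and 3223 bp), Twist1 (2229 and 2315 bp) and Hand2 (4546 and 5949 bp), and 11 in replicate 2 alone. Hox genes had 3 of 39, or 10.3% of the 29 with a promoter hotspot in both replicates, against 9.45% of all such genes. For the Sox, forkhead and bHLH lists, more genes were thus wide in replicate 2 alone than in replicate 1 alone, while the Hox list had 7 in replicate 1 alone and 6 in replicate 2 alone. The widths of Hox genes still leaned to replicate 2. Of the 29, 20 were wider in replicate 2, with a median ratio of 1.33. At least 1.5 times wider were 12 in replicate 2 and 3 in replicate 1.

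Of the 27 lists, 15 were above the share of all genes in the main setting and in each of 8 alternatives. Another 6 were at or below it in each, and 6 changed side. The alternative of hotspots at the ceiling gave the same regions as the main setting, so it was no further check. Adult organ genes and olfactory receptors, at or below in each, had few promoter hotspots that could be wide (2 of 18 and 8 of 1085 genes). With lists chosen after earlier results, these tallies are a description. The 15 are the 5 signalling and guidance lists, nuclear receptors, chromatin regulators, splicing factors, the cytoskeleton, immediate early genes, growth and cell cycle genes, and homeobox, Sox, forkhead and bHLH factors.

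Wide hotspots without a protein-coding TSS numbered 113. They had the same median number of shared peaks (4) and a similar width (median 2306 bp), with lower CpG ratios (median 0.61, against 0.76) and lower top scores (118 and 125, against 133 and 137). Around them the distal peaks were denser: a median of 12 shared peaks lay 1 to 50 kb away and over 500 bp from a TSS, against 7 around wide promoter hotspots and 7 around narrower ones. By chromosome, the share of promoter intersections that were wide ran from 6.21% on chromosome 2 to 10.25% on chromosomes 13 and 17.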

How the data were processed

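DNase-seq hotspots and peaks of 2 replicates were used as deposited, on mm10 per the file headers and labels. Per the file headers and accompanying text, the authors made each list from the filtered alignments of 1 replicate, without pooling. The deposited hotspot files give a −log10 of a q value (at most 100) and the deposited peak files a score (at most 150) of unexplained construction. For the aligner and caller, names and versions were not given in the sources used here, and read depth is unknown, so no counting error can be given. Nothing states that the replicates came from separate litters.

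Hotspots of both replicates were intersected, and intersections of at least 2000 bp over a TSS of a GENCODE M21 protein-coding transcript were kept. Peaks were placed by midpoint. Shared peaks were those of replicate 1 with at least 1 bp in common with a peak of replicate 2. The principal TSS is that of the best-ranked APPRIS transcript, then of the longest. CpG ratios and sequences were read from GRCm38 (RefSeq). Printed sequences were limited to peaks that overlap no exon of a protein-coding gene. Interval functions were tested on simulated data against direct counting. Python 3.11.15, pandas 2.3.3, numpy 2.4.6, scipy 1.17.1 and matplotlib 3.10.9 were used.

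The members, gene lists, motifs and named regions were chosen with earlier results of these data known. Named are the regions extreme in width, peak number, gene number, replicate ratio, CpG ratio or reach, those next to the limit, and the first 4 wide and the first 2 other members of each list in list order. Cyr61, Efnb1, Tmsb4x, Flna, Dcx, Syp, Gata1 and Alas2 were not found under these symbols on chromosomes 1 to 19. Some genes and regions selected by these rules are not reported here. Alternatives were other width limits, each replicate alone, joining of intersections up to 150 bp apart, other sets of TSSs, hotspots at the ceiling alone, a peak overlap of 75 bp and the better-scoring 50% of peaks.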

Additional observations from a re-analysis of the deposited data

Results flagged for a closer look

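Chromosome X was outside the chromosomes from which the regions were taken, and it held regions of the same kind. There were 27 intersections of at least 2000 bp over a protein-coding TSS on chromosome X, of 508 over a TSS (5.31%), against 8.20% on chromosomes 1 to 19. They held TSSs of 26 of 948 genes (2.74%). The widest, at Maged1, had 3007 bp with 5 shared peaks, and others were at Bcorl1 (2998 bp), Usp9x (2915 bp) and Slitrk4 (2800 bp). Male and female embryos were pooled, so the number of X chromosomes per cell is mixed. The difference from the autosomes was not tested.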

How the results depend on the processing

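The counts follow the width limit and the replicate. With a limit of 1500 bp there were 3266 regions (3609 genes, median width 1846 bp, median 3 shared peaks), and with 2500 bp 405 regions (444 genes, 2867 bp, 5 shared peaks). Leaving out a replicate in turn gave 1299 to 2194 regions, 1438 to 2400 genes, median widths of 2340 to 2395 bp, and median CpG ratios of 0.72 to 0.75; the higher counts come without replicate 1. Joining intersections up to 150 bp apart gave 1824 regions (2003 genes, 2406 bp, CpG ratio 0.73). The share reaching farther downstream was 72.6% at 1500 bp, 66.0% at 2500 bp, 69.3% with joining and 70.7% to 71.3% with a replicate left out. It was 77.1% from the most upstream and 51.4% from the most downstream TSS. The share with a long noncoding RNA TSS was 18.4% at 1500 bp, 26.2% at 2500 bp, 20.8% with joining, 20.1% with principal starts alone and 20.02% to 20.3% with a replicate left out. Gene lists apart, 28 values moved by over 1.5 times (counts) or by more than the spread between replicates (other values), and 32 did not. Hotspots at the ceiling gave the same regions.

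Hox genes had a lower share than all genes at a limit of 1500 bp and with joining, Zfp genes at 2500 bp, with replicate 2 alone and with joining, and neuron genes at 2500 bp. T-box genes were above all genes with replicate 2 alone, histone genes with joining, and hepatoblast genes under 4 alternatives. No paired analysis was possible because the samples form 1 group.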
